A study of Mus musculus with 2 samples.

Results

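The genes described here encode the initiation factors (eIF) and elongation factors (eEF) of cytosolic protein synthesis, with the eIF2 kinases and the eIF4E-binding proteins that regulate them. They were chosen by name, as the probes with 1 platform gene symbol that starts with Eif1 to Eif6 or with Eef1 or Eef2. The rule found 60 probes of 55 genes, among 13709 genes in all. Poly(A) RNA of mouse eye lens was measured in 2 samples, 1 of cortical fibers and 1 of epithelium, from 13-day-old mice, and was hybridized to 1 array each. The lenses of 5 mice were separated with forceps into cortical fibers and into capsules with their adhering epithelium. No strain, sex, genotype or treatment is given in the labels, and the sources used here do not say whether RNA of the mice was pooled. Fetal liver is named in the free text attached to each sample, but the titles, source names and series design all name the lens.

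Each value is a normalized intensity in units of the array's median. A floor was set at 0.5 of that median, and differences are log2 cortex minus log2 epithelium, with lower values raised to it. A gene counts as measured on an array where it lay above that floor. A gene passed the rule of size, and is called higher in a sample, if its intensity there was at least 3 times that in the other sample and no less than the array median. With 1 array a sample no test between the samples was possible, so no p-value is given. The table's only error estimate comes from genes with several probes, whose differences had a pooled SD of 1.10 on the log2 scale over 558 genes. The median SD of these genes was lower, at 0.59. Values are those of the deposited scaling unless another is named. Ribosomal centring, which sets the median difference of the ribosomal protein genes to 0, lowered the log2 difference of each factor gene measured on both arrays by 0.93. The spread between probes is technical and holds no biological variation. In bulk tissue, fewer cells of a type and less RNA per cell cannot be told apart.

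Translation starts when eIF2, loaded with GTP and the initiator tRNA, joins the small ribosomal subunit, and the eIF4 factors bring in the capped mRNA. The exchange factor eIF2B reloads eIF2, and the eIF2 kinases slow this step by phosphorylating eIF2. During elongation eEF1A delivers aminoacyl-tRNA and eEF2 moves the ribosome along the mRNA, while eEF2 kinase slows it. Lens fiber cells make crystallins in very large amounts and later lose their nuclei and organelles, and their protein synthesis declines as they mature.

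Most translation factor genes differed little between cortex and epithelium. Of the 55, 3 passed the rule of size with the deposited scaling, and all 3 encode regulators or an exchange factor subunit. Eef2k (eEF2 kinase) and Eif2b2 (the beta subunit of eIF2B) were higher in cortex, and Eif2ak3 (PERK, the eIF2 kinase of the endoplasmic reticulum) was higher in epithelium. The 2 genes higher in cortex were 3.64% of the members, beside 9.41% of all genes, and the 1 gene higher in epithelium was 1.82%, beside 8.17% of all genes. Over genes measured on both arrays, the shares of all genes were 13.2% in cortex and 10.2% in epithelium. Of the 55 genes, 50 were measured on both arrays, 1 on the cortex array alone, 1 on the epithelium array alone and 3 on neither. The median difference of the 50 was 0.32, beside 0.03 for the 8351 genes measured on both arrays. Of the 50, 38 (76.0%) differed by less than 2-fold, beside 57.0% of those 8351 genes. The members were bright as a class, and 40 of them stood at 5 times the median or more on both arrays. Of these 40, 80.0% differed by less than 2-fold, beside 64.3% of the 3080 genes as bright. A difference of 2-fold or more was seen for 9 of the 50 in the direction of cortex, where 22.6% of genes measured on both arrays passed that limit, and for 3 in the direction of epithelium, where 20.4% did.

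**Figure D1:**
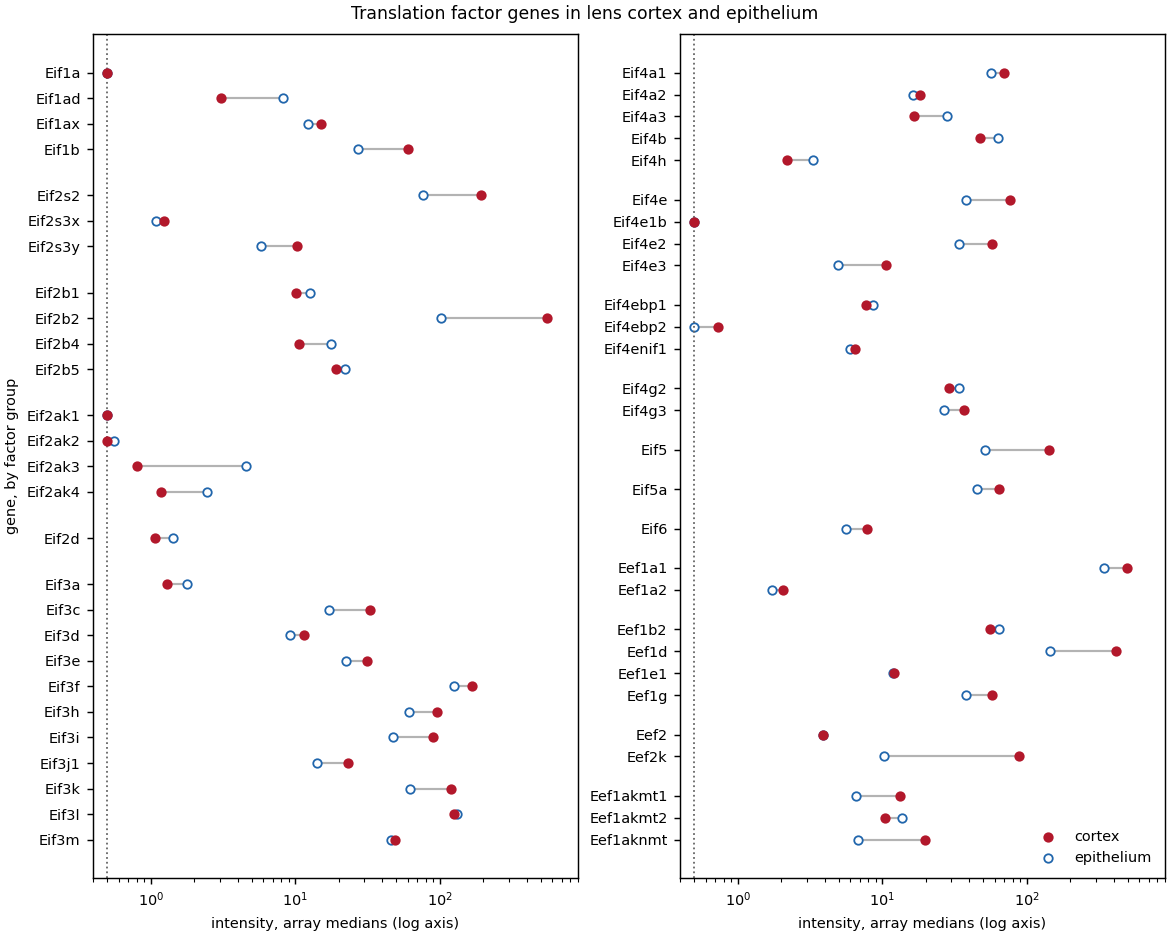
Normalized intensity of each of the 55 genes on the cortex array (filled) and the epithelium array (open), in array medians on a log axis, with 1 array each and no error bar. The dotted line is the floor, at which lower values are drawn. The wide gaps are those of Eef2k, Eif2b2 and Eif2ak3, and Eef2, Eef1e1 and Eif3l lie almost on top of each other.

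The kinase that slows elongation had the widest difference of the family as deposited and after quantile normalization and loess, but not after ribosomal centring, where Eif2ak3 and Eif1ad differed more. Eef2k had an intensity of 89.1 in cortex against 10.3 in epithelium (8.65-fold). The log2 difference of 3.11 lay above those of 96.5% of the 8351 genes. Its substrate Eef2, the translocase of the ribosome, stood at 3.87 in cortex and 3.86 in epithelium. With the deposited scaling the Eef2 probe was thus equally bright on both arrays, beside a wide gap for its kinase. Eef2k and Eef2 each have 1 probe, so this contrast rests on single probes. How well the Eef2 probe reports its gene was not tested. The difference of Eef2k exceeded that of Eef2 by 3.11 with the deposited scaling and by 2.60 after loess, the lowest of the scalings tried. Eef2k passed the 3-fold limit in each scaling, with 6.71-fold after loess, 6.35-fold after quantile normalization and 4.53-fold after ribosomal centring.

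The probes of the exchange factor eIF2B were uneven. Eif2b2 had an intensity of 555 in cortex against 102 in epithelium (5.43-fold). The other 3 measured subunit genes were slightly brighter in epithelium. Eif2b1 (alpha) stood at 10.1 in cortex against 12.7 in epithelium, Eif2b4 (delta) at 10.7 in cortex against 17.6 in epithelium and Eif2b5 (epsilon, the catalytic subunit) at 19.2 in cortex against 22.04 in epithelium. Their log2 differences lay between -0.72 and -0.20, each smaller than the pooled SD between probes. The difference of Eif2b2 exceeded the nearest of them by 2.64 with the deposited scaling, by 2.02 after quantile normalization and by 1.73 after loess. Eif2b2 itself did not pass the 3-fold limit in the other scalings, where it differed 2.76-fold (quantile), 2.58-fold (loess) and 2.84-fold (ribosomal centring). After that centring Eif2b4 passed in the direction of epithelium (3.14-fold). Each eIF2B gene has 1 probe, so the gap rests on single probes. The Eif2b2 probe was the brightest of the family on the cortex array, above Eef1a1 (496 in cortex). How well the Eif2b2 probe reports its gene was not tested.

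Of the 4 eIF2 kinase genes, the 2 measured on both arrays were brighter in epithelium, in each scaling. Eif2ak3 had an intensity of 0.797 in cortex against 4.57 in epithelium (5.73-fold). Its cortex value lay between the floor and the array median, and raising the floor to that median leaves a difference of at least 4.58-fold. Eif2ak3 passed the limit in each scaling, from 4.96-fold after loess to 10.9-fold after ribosomal centring. It has 1 probe, so these values rest on a single probe. Eif2ak4 (GCN2, the sensor of uncharged tRNA) stood at 1.17 in cortex and 2.46 in epithelium, 2.10-fold and under the limit, and it passed after ribosomal centring (4.01-fold). As deposited, the log2 difference of Eif2ak4 was -1.07, smaller than the pooled SD between probes. Eif2ak2 (PKR, activated by double-stranded RNA) was under the floor in cortex and at 0.554 in epithelium, which sets a lower bound of 1.11-fold. That bound vanished with a floor at the array median, and the second Eif2ak2 probe was under the floor on both arrays. Eif2ak1 (HRI, the heme-regulated kinase) was under the floor on both arrays, at 0.419 in cortex and 0.287 in epithelium.

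The promoters of the 3 genes that passed are shown because they carry the largest differences of the family. The windows run from 250 bases before to 50 bases after an annotated start (RefSeq, GRCm38.p6, plus strand for all 3). For Eef2k, the most upstream of 3 annotated starts is shown, at chr7:120842581-120842880, and the Eif2b2 and Eif2ak3 windows are at chr12:85219231-85219530 and chr6:70844265-70844564. The capitals mark an E-box (CACGTG) in Eef2k, an ETS motif (CCGGAAGT) in Eif2b2 and each CCAAT box, read on either strand, in Eif2ak3.
Eef2k: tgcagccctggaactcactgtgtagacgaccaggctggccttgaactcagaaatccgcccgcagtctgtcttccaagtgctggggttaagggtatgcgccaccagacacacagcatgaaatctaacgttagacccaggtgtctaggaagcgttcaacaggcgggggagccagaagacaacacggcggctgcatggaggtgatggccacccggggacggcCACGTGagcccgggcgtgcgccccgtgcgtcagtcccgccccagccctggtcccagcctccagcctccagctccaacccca
Eif2b2: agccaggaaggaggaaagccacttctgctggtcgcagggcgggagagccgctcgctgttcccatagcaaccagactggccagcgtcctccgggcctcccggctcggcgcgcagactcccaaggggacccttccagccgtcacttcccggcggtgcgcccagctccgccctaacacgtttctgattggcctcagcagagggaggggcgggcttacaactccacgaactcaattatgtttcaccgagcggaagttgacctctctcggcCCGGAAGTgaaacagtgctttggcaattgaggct
Eif2ak3: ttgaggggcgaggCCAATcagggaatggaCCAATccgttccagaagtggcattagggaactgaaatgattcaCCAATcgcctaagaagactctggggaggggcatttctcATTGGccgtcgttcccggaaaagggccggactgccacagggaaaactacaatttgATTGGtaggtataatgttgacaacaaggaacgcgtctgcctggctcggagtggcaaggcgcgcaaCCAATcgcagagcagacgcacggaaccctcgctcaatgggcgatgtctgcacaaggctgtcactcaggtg
The Eif2ak3 window held 6 CCAAT boxes, and that of Eif2b2 held 1, unmarked above. GC boxes (GGGCGG), also unmarked, numbered 2 in the Eef2k window and 3 in that of Eif2b2. Over the 43 translation factor genes with a promoter window, an E-box was found for 11 (25.6%), beside 10.1% of the 10948 genes on the array with a window. The ETS motif was found for 8 (18.6%, beside 6.46%), the GC box GGGCGG for 32 (74.4%, beside 56.3%), the CCAAT box for 15 (34.9%, beside 42.0%) and the TATA box TATAAA for 3 (6.98%, beside 13.1%). Both strands were searched, a gene with several starts counted once, and none of these motifs contains another. A match describes letters in the window and is not a binding site.

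The 3 measured genes of eIF2 were brighter in cortex without passing, also after quantile normalization and loess, though only Eif2s2 was after ribosomal centring. Eif2s2 (beta) stood at 192 in cortex and 76.3 in epithelium (2.51-fold), and differed 1.34-fold after quantile normalization and 1.32-fold after ribosomal centring. Eif2s3x and Eif2s3y, the X- and Y-linked copies of the gamma subunit, stood at 1.24 in cortex against 1.09 in epithelium and at 10.3 in cortex against 5.78 in epithelium. These copies are nearly identical, so their probes may share signal and their separate values are uncertain. The alpha subunit gene Eif2s1, which carries the site the kinases phosphorylate, was not analysed here. Eif2d, whose product can place tRNA on the ribosome without eIF2, stood at 1.07 in cortex and 1.44 in epithelium.

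The scanning factor genes split. Eif1b, a close relative of eIF1, stood at 60.8 in cortex and 27.4 in epithelium (2.22-fold), and 1.47-fold apart after quantile normalization. Eif1ax, the X-linked gene of eIF1A, stood at 15.1 in cortex against 12.2 in epithelium, and Eif1a was under the floor on both arrays. Eif1ad, which encodes a protein with an eIF1A-like domain, went the other way (3.04 in cortex, 8.25 in epithelium, 2.71-fold). Its log2 difference of -1.44 was the second most negative of the family and larger than the pooled SD between probes. After ribosomal centring Eif1ad passed in the direction of epithelium (5.17-fold).

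All 11 measured subunit genes of eIF3, the scaffold of the initiation complex, differed by less than 2-fold as deposited. Of these, 9 were brighter in cortex, with a median difference of 0.49. The most positive were Eif3c (32.9 in cortex against 17.1 in epithelium), Eif3k (119.8 in cortex against 62.5 in epithelium) and Eif3i (90.2 in cortex against 47.2 in epithelium), all about 1.9-fold. Eif3j1 (23.0 in cortex against 14.0 in epithelium), Eif3h (96.3 in cortex against 61.8 in epithelium), Eif3e (31.5 in cortex against 22.5 in epithelium), Eif3f (167 in cortex against 125 in epithelium) and Eif3d (11.5 in cortex against 9.16 in epithelium) followed. Eif3m (48.7 in cortex against 45.7 in epithelium) and Eif3l (125 in cortex against 132 in epithelium) differed by less than 1.1-fold. Eif3a, the largest subunit, had the most negative difference (1.29 in cortex against 1.80 in epithelium). The whole complex spanned -0.48 to 0.95, and each difference was smaller than the pooled SD between probes. Eif3l exceeded 2-fold after quantile normalization (2.13-fold) and ribosomal centring (2.01-fold), and Eif3a after that centring (2.66-fold), both in the direction of epithelium. After quantile normalization and after loess, 6 of the 11 were brighter in cortex, and ribosomal centring left 2.

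**Figure D2:**
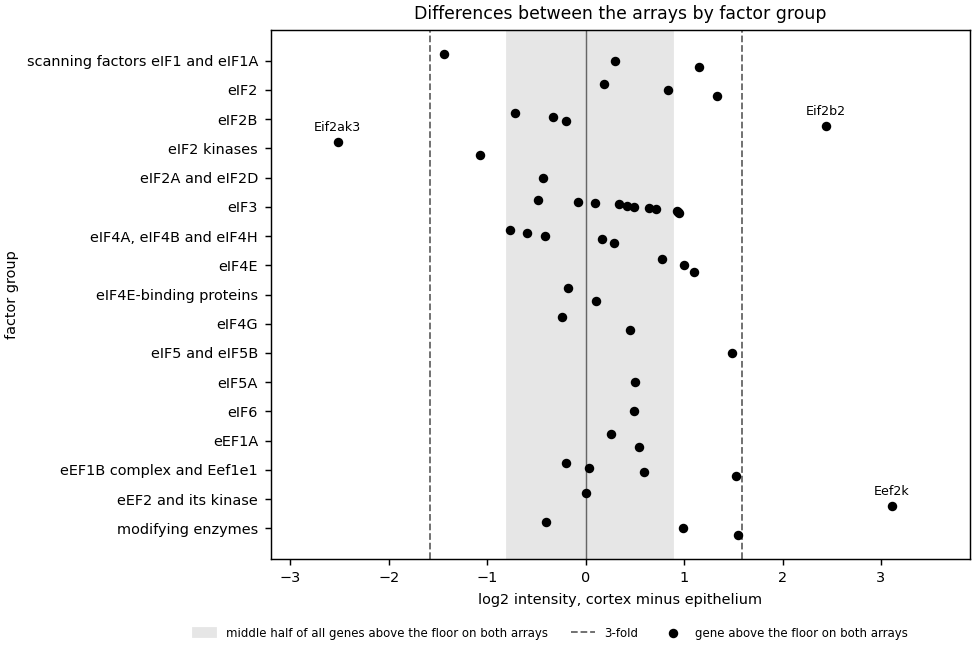
Log2 difference, cortex minus epithelium, of the 50 genes measured on both arrays, by factor group, with the deposited scaling and no replicates. The shaded band runs from the lower to the upper quartile of all genes measured on both arrays (-0.80 to 0.89), and the dashed lines mark 3-fold. All 11 eIF3 genes lie between -0.48 and 0.95, and only Eef2k, Eif2b2 and Eif2ak3 lie outside the dashed lines.

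The 3 measured cap-binding genes were brighter in cortex with the deposited values, quantile normalization and loess, and 2 of them were after ribosomal centring. Eif4e, the cap-binding protein, stood at 76.7 in cortex and 38.3 in epithelium (2.01-fold), and differed 1.33-fold after loess and 1.05-fold after ribosomal centring. Eif4e3 stood at 10.6 in cortex against 4.94 in epithelium (2.14-fold), and Eif4e2, encoding the homologue 4EHP that acts in repression, at 57.6 in cortex against 33.7 in epithelium (1.71-fold). A second Eif4e2 probe gave 28.7 in cortex and 18.7 in epithelium, the same direction. The oocyte-type gene Eif4e1b was under the floor on both arrays. The 3 genes had a median difference of 1.004 with the deposited scaling and 0.26 after quantile normalization. None of the eIF4E-binding genes passed. Eif4ebp1, whose product holds eIF4E inactive until mTORC1 phosphorylates it, stood at 7.67 in cortex and 8.67 in epithelium. Eif4ebp2 was at 0.732 in cortex, below the array median, and under the floor in epithelium. This sets a bound of 1.47-fold in the direction of cortex, which vanished with a floor at the array median. After ribosomal centring its log2 difference, with the epithelium value at the floor, was -0.38. Eif4enif1, the eIF4E transporter 4E-T, stood at 6.43 in cortex against 5.99 in epithelium.

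Of the 5 genes of the helicase and its cofactors, 2 were brighter in cortex with the deposited values, 1 after loess and none after quantile normalization or ribosomal centring. Eif4a1 and Eif4a2, the RNA helicases of cap-dependent initiation, were nearly even, at 69.5 in cortex against 56.7 in epithelium and 18.3 in cortex against 16.4 in epithelium. Eif4a3, a core protein of the exon junction complex, stood at 16.5 in cortex and 28.1 in epithelium (1.70-fold). The cofactor genes went the same way, with Eif4b at 47.4 in cortex against 62.9 in epithelium and Eif4h at 2.19 in cortex against 3.32 in epithelium. The second Eif4b probe gave 19.2 in cortex and 17.9 in epithelium, so the direction of Eif4b is not settled. Of the scaffold genes, Eif4g2 (DAP5, which lacks the eIF4E site) stood at 29.0 in cortex against 34.1 in epithelium and Eif4g3 at 36.9 in cortex against 26.9 in epithelium. Eif4g1 was not analysed here. No gene of these groups differed by 2-fold with the deposited scaling. Eif4a3 passed in the direction of epithelium after ribosomal centring (3.25-fold), and differed 2.28-fold after quantile normalization. The brighter Eif4b probe differed 2.25-fold after quantile normalization and 2.01-fold after loess. After ribosomal centring Eif4h (2.90-fold), Eif4b (2.54-fold) and Eif4g2 (2.25-fold) also exceeded 2-fold. All of these were in the direction of epithelium.

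None of the genes of subunit joining passed. Eif5, the GTPase activator of eIF2, stood at 143 in cortex and 51.2 in epithelium, 2.80-fold as deposited, 1.60-fold after quantile normalization, 1.67-fold after loess and 1.47-fold after ribosomal centring. Eif6, which keeps the large ribosomal subunit apart, stood at 7.90 in cortex against 5.63 in epithelium. Eif5a, the hypusine-bearing factor that helps ribosomes through difficult stretches, stood at 64.2 in cortex against 45.4 in epithelium (1.41-fold). The direction of Eif5a flipped in each of the other scalings.

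Elongation factor genes other than Eef2k all stayed under the limit. Eef1a1, the common form of eEF1A, stood at 496 in cortex and 341 in epithelium (1.45-fold). After quantile normalization its difference was -0.66, after loess -0.73 and after ribosomal centring -0.39, so it has no settled direction. A second Eef1a1 probe had no cortex value. Eef1a2, the form of muscle and neurons, stood at 2.06 in cortex against 1.73 in epithelium, and the 2 genes are close in sequence. The exchange factor subunit genes differed among themselves. Eef1d (delta) stood at 417 in cortex and 145 in epithelium (2.88-fold), Eef1g (gamma) at 57.4 in cortex against 38.0 in epithelium and Eef1b2 (beta) at 56.0 in cortex against 64.4 in epithelium. Eef1d was brighter in cortex in each scaling, by 1.36-fold at the least. Eef1e1, named with them but part of the aminoacyl-tRNA synthetase complex, stood at 12.1 in cortex against 11.8 in epithelium.

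The methyltransferase genes that modify eEF1A varied. Eef1aknmt (METTL13) stood at 19.8 in cortex and 6.75 in epithelium, 2.93-fold as deposited and 1.53-fold after ribosomal centring. Its second probe was even, at 0.844 in cortex and 0.822 in epithelium, both under the array median. Eef1akmt1 stood at 13.2 in cortex against 6.62 in epithelium and Eef1akmt2 at 10.4 in cortex against 13.8 in epithelium.

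The direction of the family as a whole depended on the scaling, as did that of all genes. With the deposited values, 34 of the 50 genes (68.0%) were brighter in cortex, beside 51.0% of all genes measured on both arrays. After quantile normalization the count was 23 of 50 (46.0%, beside 46.3% of all genes). The median of the 50 was then -0.09, beside -0.11 for all genes. After loess on brightness the count was 27 of 50 (54.0%, beside 49.6% of all genes), with a median of 0.07, beside -0.01. Ribosomal protein genes were brighter in cortex for 62 of 63, with a median of 0.93. Centred on them, 12 of the 50 factor genes (24.0%, beside 24.1% of all genes) were brighter in cortex. The median of the 50 was then -0.62 and that of all genes -0.90. The median of the factor genes minus that of all genes was 0.29 as deposited and after ribosomal centring, 0.07 after loess and 0.03 after quantile normalization. Eef2k and Eif2ak3 passed under all of these scalings, and Eif2b2 as deposited only.

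**Figure D3:**
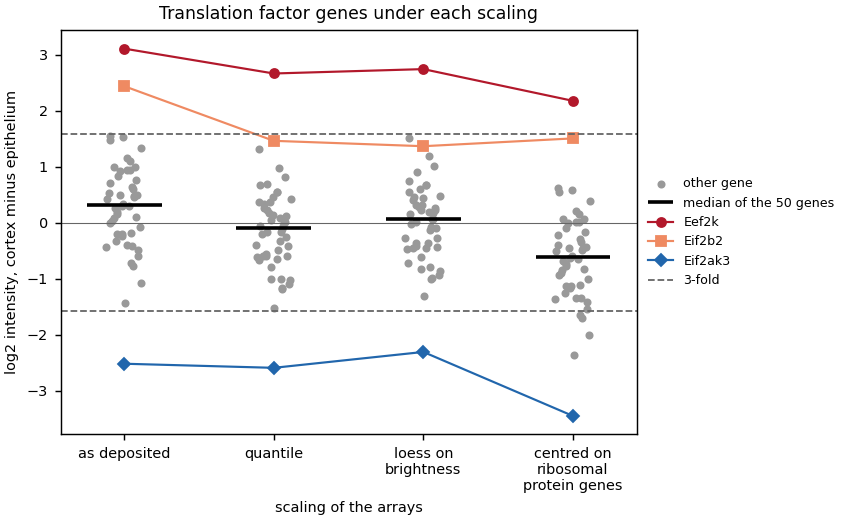
Log2 difference, cortex minus epithelium, of the 50 genes measured on both arrays (points) and their median (bar) under 4 scalings of the same 2 arrays. Eef2k stays above and Eif2ak3 below the dashed 3-fold lines in all 4, Eif2b2 is above only as deposited, and the median moves between 0.32 and -0.62.

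Genes that act with the factors were examined in 7 lists holding 63 genes on the array. With the deposited scaling, 6 passed in the direction of cortex (9.52%, beside 9.41% of all genes) and 3 in that of epithelium (4.76%, beside 8.17%), so the count in cortex was at the background. The median over the 54 measured on both was 0.11. Each related gene that passed as deposited has 1 probe, so these differences rest on single probes in every scaling. The list around eIF2 dephosphorylation held the widest difference. Ppp1r15a (GADD34, the inducible subunit that directs a phosphatase to eIF2) stood at 219 in cortex against 3.23 in epithelium, 67.8-fold as deposited and 35.5-fold after ribosomal centring, the smallest of the scalings. Gcn1, the coactivator of the kinase GCN2, stood at 182 in cortex against 26.6 in epithelium (6.85-fold). The constitutive partner Ppp1r15b (8.25 in cortex against 3.93 in epithelium), the eIF2-responsive transcription factor gene Atf4 (250.2 in cortex against 96.3 in epithelium) and Ddit3 (8.37 in cortex against 7.94 in epithelium) did not pass. In this list 2 of 8 genes were higher in cortex, beside 13.2% of all genes measured on both arrays, and none in epithelium, and with so few genes the share is imprecise. After ribosomal centring Nck1 of this list passed in the direction of epithelium (3.82-fold).

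In the list of eIF4E kinases and the mTORC1 arm, 2 of 14 were higher in cortex (14.3%, beside 9.41% of all genes and 13.2% of those measured on both arrays) and none in epithelium. Rragc, a GTPase that recruits mTORC1 to lysosomes, stood at 7.40 in cortex against 1.26 in epithelium (5.89-fold). Tsc2, an inhibitor of the pathway, stood at 88.6 in cortex against 20.4 in epithelium (4.33-fold) and was under the limit after quantile normalization (2.99-fold) and ribosomal centring (2.27-fold). Mtor itself stood at 7.32 in cortex and 19.1 in epithelium (2.61-fold). It passed in the direction of epithelium after quantile normalization and ribosomal centring, and Ddit4 (4.02-fold) and Pdcd4 (5.07-fold) passed there after that centring. The eIF4E kinase gene Mknk1 was under the floor on both arrays, and Mknk2 (0.723 in cortex) was under it in epithelium.

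Among termination and recycling genes, 1 of 7 was higher in each direction (14.3% each). For comparison with this list and those that follow, 9.41% of the 13709 genes passed toward cortex and 8.17% toward epithelium. With 1 call in so few genes, these shares are imprecise. Hbs1l, a ribosome rescue GTPase, stood at 32.7 in cortex against 5.69 in epithelium (5.74-fold). Gspt2, a form of release factor eRF3, was under the floor in cortex and at 2.31 in epithelium, at least 4.62-fold, and did not pass with a floor at the array median (at least 2.31-fold). Of 5 genes in the poly(A)-binding list, only Pabpc1 (20.0%) was higher in cortex (438 in cortex against 121 in epithelium, 3.61-fold). Pabpc1 did not pass in the other scalings. Ptbp1, an RNA-binding protein that assists internal initiation, was higher in epithelium (4.86 in cortex against 27.1 in epithelium, 5.58-fold). It was the only 1 of 7 (14.3%) in the list of alternative factors to pass as deposited. After ribosomal centring Abcf2 (3.55-fold), Denr (3.56-fold) and Mcts1 (3.18-fold) of that list also passed in the direction of epithelium. The list of aminoacyl-tRNA synthetases and their scaffold held 17 genes, with a median of 0.03. Only Tars (5.88%) passed as deposited, in epithelium (0.942 in cortex against 3.35 in epithelium, 3.56-fold). Aars (4.39-fold), Qars (3.45-fold) and Vars (5.15-fold) also passed in that direction after ribosomal centring. None of the 5 hypusine and diphthamide enzyme genes passed as deposited, and Dph6 (3.74-fold) and Dph7 (3.04-fold) passed in the direction of epithelium after ribosomal centring. Over all lists, ribosomal centring gave 4 genes in cortex (6.35%, beside 4.19% of all genes) and 15 in epithelium (23.8%, beside 20.3%). Quantile normalization gave 4 in cortex (6.35%, beside 8.28%) and 4 in epithelium (6.35%, beside 9.48%), and loess gave 5 in cortex (7.94%, beside 9.26%) and 3 in epithelium (4.76%, beside 7.81%).

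**Figure D4:**
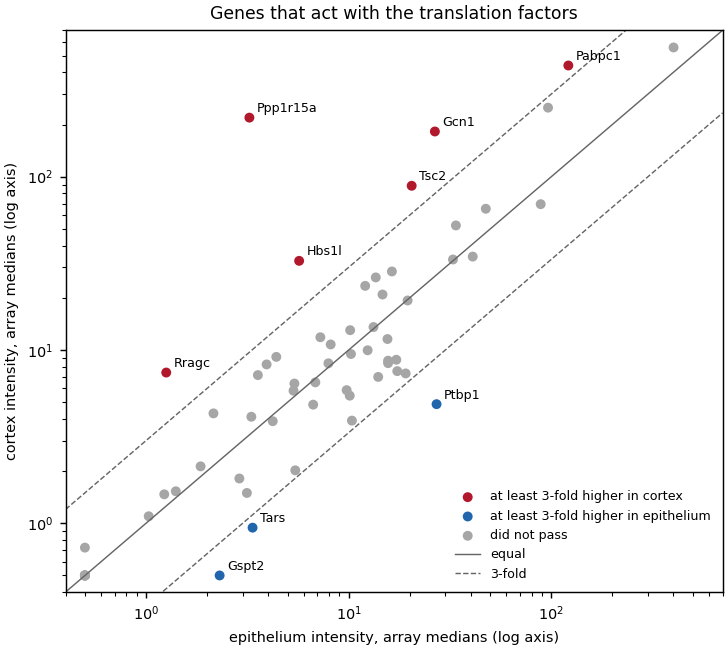
Cortex intensity against epithelium intensity, in array medians on log axes, of the 63 genes in the 7 related lists, 1 array each. The solid line marks equal values and the dashed lines 3-fold, and values under the floor are drawn at it. Ppp1r15a (219 in cortex, 3.23 in epithelium) lies farthest from the line.

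The labelled tissues were checked against markers. Of 6 fiber markers, 5 were higher in cortex (summed intensity 6587 in cortex, 763 in epithelium), and of 6 lens epithelium markers, 5 were higher in epithelium (summed 4.13 in cortex, 318 in epithelium). The fiber marker Cryaa did not pass in the other scalings. Crygd, another fiber marker, stood at 3357 in cortex and still at 196 in epithelium. Of 7 liver markers, Ahsg was higher in cortex (185 in cortex against 16.9 in epithelium), while Afp, Apoa1, Apoa2, Serpina1a and Ttr lay below the array median on both. Trf stood at 1.16 in cortex and 2.26 in epithelium and passed in the direction of epithelium after ribosomal centring (3.71-fold). No erythroid gene of 3, no neuron gene of 3 and no macrophage gene of 3 passed. Of 5 muscle genes, Acta1 was higher in cortex (17.1 in cortex against 0.741 in epithelium), and of 5 pigment cell genes, 2 were higher in epithelium and 1 in cortex. The part of these cells in the differences above was not tested.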

How the data were processed

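Per the labels, poly(A) RNA was copied into biotin-labelled RNA, hybridized to a 1-colour CodeLink mouse array and stained with a Cy5 conjugate. The deposited table has 19819 probes and gives the authors' normalized intensity of each on both arrays. These values are linear and include some below 0 (161 in cortex, 74 in epithelium), and each array's median is 0.998. How the authors subtracted background and scaled the arrays is not given in the labels or the table, and detection flags were not used here. Probes without a value (87 in cortex, 97 in epithelium) were not used.

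The platform annotation named the genes (15120 probes with 1 symbol, 38 with several, 4661 with none). All 55 factor genes matched the RefSeq table of GRCm38.p6 by Entrez identifier. There, 71 protein-coding genes fit the naming rule, and 16 of them were not analysed here, among them Eif1, Eif2a, Eif2s1, Eif2b3, Eif3b, Eif3g, Eif4g1, Eif4ebp3, Eif5a2 and Eif5b.

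Values below the floor of 0.5 of the array median (0.499 on both) were raised to it before log2. No detection limit is implied by the floor. Of several probes the brightest by mean log2 value stood for its gene. A fold against a value under the floor is a bound. Every factor gene was named, with both values where it passed the rule of size, and related genes were named where they passed, with a few others chosen after their values were seen. The alternatives were 3 other scalings (quantile, loess on brightness with a span of 0.3, and ribosomal centring, which sets the median difference of the 63 ribosomal protein genes to 0), no floor or a floor at the array median, a mean over a gene's probes, limits of 2-fold and 5-fold, and no condition on brightness. The rule and lists were chosen with earlier results of these data known. The rule of size was run on simulated data with planted changes above the 3-fold limit and less noise than the pooled SD between probes. That run does not show how reliable the calls are in these data. Signal over background and 1 array per sample limit the precision. Python 3.11.15, numpy 2.4.6, pandas 2.3.3, statsmodels 0.14.6 and matplotlib 3.10.9 were used.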

Additional observations from a re-analysis of the deposited data

How the results depend on the processing

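As deposited, 2 of the 55 translation factor genes passed in cortex (beside 9.41% of all genes) and 1 in epithelium (beside 8.17%). The count in cortex was 1 after quantile normalization, loess or ribosomal centring, since Eif2b2 no longer passed. In these scalings 8.28%, 9.26% and 4.19% of all genes passed in cortex. The count in epithelium was 5 of 55 after ribosomal centring, with Eif1ad, Eif2ak4, Eif2b4 and Eif4a3 beside Eif2ak3, where 20.3% of all genes passed. A 2-fold limit, being lower, let 9 of 55 pass in cortex (beside 16.4% of all genes) and 3 in epithelium (beside 15.3%). Under a 5-fold limit, no condition on brightness, a mean over probes, no floor or a floor at the array median, the counts were 2 and 1 again. At 5-fold, 5.09% of all genes passed in cortex and 3.48% in epithelium. With no condition on brightness these shares were 9.41% and 8.17%, and with a mean over probes 8.74% and 7.69%. A floor at the array median gave 8.07% and 6.40%. With no floor, where 54 factor genes and 13565 genes in all remained, the shares were 10.4% and 8.80%.

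The median difference over all 55 genes was 0.29 as deposited. It was -0.054 after quantile normalization and -0.51 after ribosomal centring, opposite in sign, and 0.017 after loess. The cause of the differences between scalings was not tested. These scalings also moved the median of all genes measured on both arrays, which was -0.11 after quantile normalization, -0.90 after ribosomal centring and -0.01 after loess, and 0.03 as deposited. The calls over all genes moved too, with 574 in cortex and 2784 in epithelium after that centring, against 1290 and 1120 as deposited. Of the 50 factor genes measured on both arrays, quantile normalization moved 19 by over 1.5-fold and turned the sign of 11, loess moved 15 and turned 7, and ribosomal centring moved all 50 by the same 0.93 on the log2 scale and turned 22. Eef1a1 moved most after quantile normalization and loess, by more than the pooled SD between probes. None of the 3 genes that passed as deposited changed sign under these scalings. No paired analysis was possible because each group has 1 sample. No sample could be left out for the same reason.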
